A study of Danio rerio with 69 samples.

Results

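The gene exorh encodes exo-rhodopsin, an opsin of teleost fish. It is 1 of 8793 genes named on the zebrafish (Danio rerio) array and had 1 probe set among 15502 that were not controls. That probe set was taken because the platform annotation gives it the symbol exorh. An opsin is a receptor that holds a vitamin A aldehyde and becomes active when light strikes it. Exo-rhodopsin is close in sequence to the rhodopsin of retinal rods but is known as an opsin of pineal photoreceptors, and its promoter is widely used to mark the fish pineal. As in the eye, the active opsin is thought to switch on the G protein transducin, which activates a phosphodiesterase that breaks down cyclic GMP and so closes cation channels. The fish pineal combines this light detection with the synthesis of melatonin, which is made mainly at night. The sequences of the gene, its protein and its promoter were not used here.

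Pineal gland and brain were sampled from zebrafish that carried a GFP transgene under the promoter of aanat2, which encodes the night-time enzyme of melatonin synthesis. Glow of the transgene guided the manual dissection of the gland, and the brain sample was what remained once the gland and the eyes had been taken out. All fish, in every group, were kept at 28.5 °C with 14 h of light and 10 h of dark. The 20 groups combined 5 ages, both tissues and both sampling times, and held 69 arrays in all, 38 from pineal and 31 from brain. At 3 days the groups held 3 arrays by day and 4 by night in each tissue. At 5 days there were 5 day and 4 night arrays of pineal, and 3 and 2 of brain. At 10 days there were 4 and 4 of pineal, and 3 and 4 of brain. At 3 months each group had 3 arrays, and at 1 to 2 years there were 4 and 4 of pineal and 3 and 3 of brain. Fish of 3, 5 and 10 days are called larval below and the older fish adult. The labels call the arrays of a group biological replicates, and the sources used here do not give the number of glands in a sample.

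The deposited intensity of a probe set is linear and was already scaled between arrays. Log2 values below are log2(intensity + 16) after quantile normalization, and differences between groups are on that scale, which understates changes of dim probe sets. Medians of single arrays lay between 113.2 and 220.8. All 8 genes taken as markers of pineal photoreceptors were higher in pineal than in brain. The list was chosen with earlier results of these data known, so this excess cannot check the dissection. The 8 genes were aanat2, crx, otx5, gnat1, gngt1, gngt2a, rcvrn3 and tph2. Their summed intensity lay between 5177 and 91944 on pineal arrays and between 408.5 and 5276 on brain arrays, where 3-month brain, day, replicate 3 was the highest and the next brain array read 2434. The control probe set for the green fluorescent protein EGFP did not separate the tissues, with a median intensity of 16.65 on pineal arrays and 13.8 on brain arrays. The medians in pineal and brain were 15.8 and 32.1 in larvae and 24.75 and 9.1 in adults, with overlapping ranges at both stages. GAPDH is probed at both ends of its transcript, and the ratio of the 3' to the 5' signal, a measure of RNA quality, was over 3 on 11 arrays. The highest ratios, 17.2 and 13.8, were on 1 to 2-year brain, day, replicates 2 and 1, where exorh read 88.8 and 6.3. The library labelled 10-day pineal, day, replicate 2 had a ratio of 10.4 and stood apart from the others of its group in several photoreceptor genes, as given below.

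In pineal, exorh had a higher signal than in brain at every age, lowest at 10 days and highest in adults. By day at 3 days its intensities were 300.9, 335.4 and 423.8, and by night 406.5, 457.8, 483.9 and 348.5. These 7 arrays lay close together, and the day and night values overlapped. At 5 days the day arrays read 181.5, 146.1, 618.4, 462.3 and 310.8, the widest relative spread of any pineal group. The night arrays of that age read 590.8, 474.6, 281.0 and 477.2 and fell within the range of the day arrays. At 10 days the day intensities were 79.6, 62.3, 62.8 and 117.4, all below every value at 3 and 5 days. The night intensities at 10 days were 253.2, 274.7, 81.6 and 153.1, of which 3 lay above all 4 day values.

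The adult glands were on another level. At 3 months the day arrays read 3615, 4085 and 2792 and the night arrays 2719, 3005 and 6432. At 1 to 2 years the day arrays read 5336, 3334, 4754 and 7769 and the night arrays 8300, 8098, 5328 and 3010. The lowest adult value, 2719, was above the highest larval value, 618.4. Day and night values overlapped at both adult ages, and the ages overlapped each other.

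Brain samples gave low values at all ages. Over the 31 brain arrays the intensity of exorh had a lowest value of 3.8, a median of 32.0 and a highest value of 115.9. In larval brain the median was 28.3 over 19 arrays and in adult brain 34.9 over 12 arrays, and the ranges of the stages overlapped almost fully. The highest brain value came from 5-day brain, day, replicate 1. The files carry no detection calls, so these values cannot be sorted into present and absent. On the 3-month brain array with the highest photoreceptor marker sum, the exorh intensity was 9.1.

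**Figure D1:**
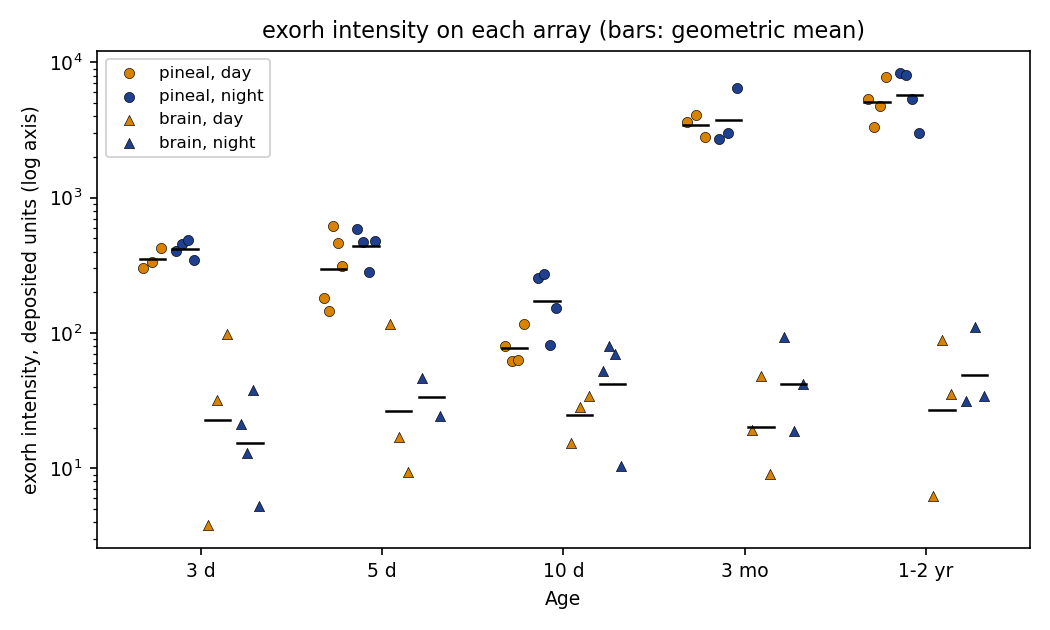
Intensity of exorh on each of the 69 arrays (log axis, deposited units) by age, with pineal as circles, brain as triangles, day in orange and night in blue; bars mark the geometric mean of a group. The adult pineal arrays lie between 2719 and 8300, the larval pineal arrays between 62.3 and 618.4 with the lowest values at 10 days, and the brain arrays between 3.8 and 115.9.

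Ordered by their mean log2 value, the 20 groups ran from 12.52 ± 0.52 (SD, n = 4) in pineal at 1 to 2 years by night to 4.94 ± 0.55 (SD, n = 4) in brain at 3 days by night. The 10 pineal groups took the first 10 places. Of the 19 steps between neighbours in this order, the step from 3-month pineal by day (11.86 ± 0.34, SD, n = 3) down to 5-day pineal by night (8.92 ± 0.39, SD, n = 4) was the only one that passed the test, at 2.94 ± 0.51 (SE; limma, adjusted p = 9.23e-06). It was also the only step at which the ranges of the neighbouring groups did not overlap. The order was taken from these same values, which makes most steps between neighbours small. The adjusted p corrects over probe sets and not for this ordering or for the choice among 19 steps. The lowest pineal group, 10-day pineal by day (6.60 ± 0.28, SD, n = 4), exceeded the highest brain group by 0.48 ± 0.51 (SE; limma, adjusted p = 0.569). That brain group was of another age, 1 to 2 years by night (6.13 ± 1.03, SD, n = 3).

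The comparison of pineal with brain asks how far exorh marks the gland at each age. At 3 days exorh was 10.7-fold higher in pineal, a log2 difference of 3.42 ± 0.36 (SE, as for all differences below; limma, 7 against 7 arrays, adjusted p = 1.99e-11). A difference between tissues or ages was called at an adjusted p below 0.05 and at least 2-fold, and 1.79% of all probe sets were called higher in pineal at this age. At 5 days the difference was 2.89 ± 0.38 or 7.44-fold (limma, 9 against 5 arrays, adjusted p = 2.18e-08), where 1.83% of all probe sets were called higher. All 16 pineal arrays of these ages were above all brain arrays of the same age.

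At 10 days the difference was smallest, 1.58 ± 0.35 or 3.00-fold (limma, 8 against 7 arrays, adjusted p = 0.00136), with 1.65% of all probe sets called higher. In deposited intensity, the 10-day pineal arrays reached down to 62.3 and the brain arrays up to 79.6, so the tissues overlapped there; after normalization the lowest pineal value, 6.369, was level with the highest brain value, 6.368. The 10-day difference fell just below 2-fold, at 0.99 with adjusted p = 0.00441 (limma), when 64 was added to the intensities in place of 16.

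In adults the difference reached 6.21 ± 0.39 at 3 months (limma, 6 against 6 arrays, adjusted p = 3.92e-21) and 6.51 ± 0.36 at 1 to 2 years (limma, 8 against 6 arrays, adjusted p = 7.20e-24). These correspond to 73.8-fold and 91.0-fold, at ages where 10.9% of all probe sets were called higher. Since the brain values are dim, the sizes depend on the added constant. The difference at 1 to 2 years was 7.08 with a constant of 1 and 5.62 with 64. Ranked from the largest excess in pineal among the 15502 probe sets, exorh came at rank 18 with 3-day fish, 25 with 5-day, 85 with 10-day, 9 with 3-month and 13 with 1 to 2-year fish. The larval and adult brain samples compared here were unlike in markers of other cell types, as given below.

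**Figure D2:**
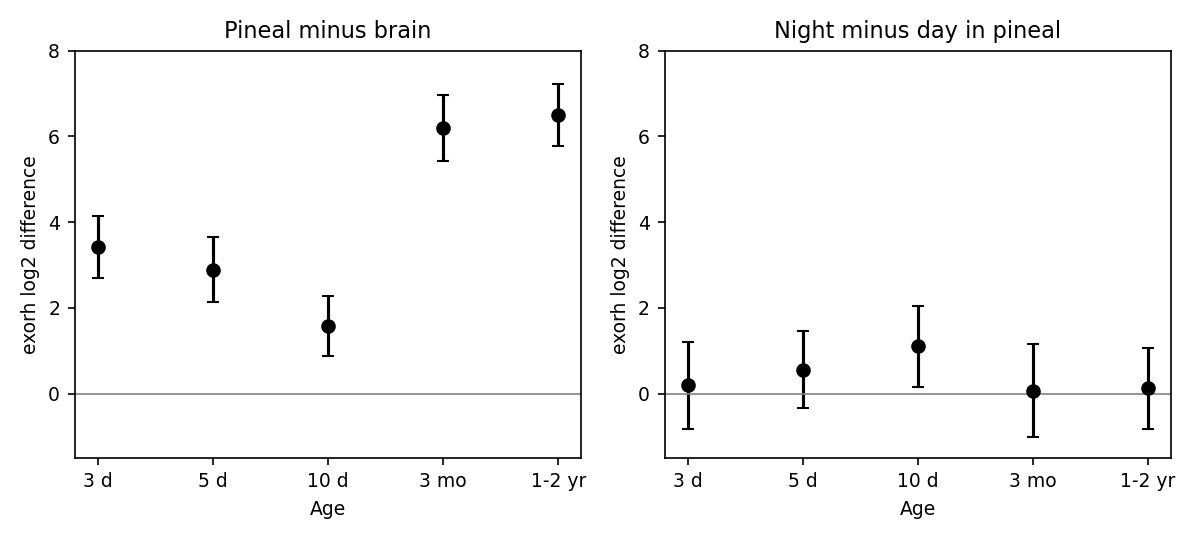
Log2 difference of exorh at each age, pineal minus brain on the left and night minus day in pineal on the right; points are limma estimates and bars their 95% confidence intervals. The left panel falls from 3.42 at 3 days to 1.58 at 10 days and stands at 6.21 and 6.51 in adults, while in the right panel the values lie between 0.07 and 1.1.

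The comparison between ages in pineal asks how the opsin changes as the gland matures. From 3 to 5 days exorh did not pass the test, with a difference of -0.02 ± 0.34 (95% interval -0.70 to 0.66; limma, adjusted p = 0.983), and 2.66% of all probe sets were called. From 5 to 10 days it fell by 1.49 on the log2 scale, with an SE of 0.33, or 2.81-fold (limma, 8 against 9 arrays, adjusted p = 0.000542). It was number 184 of the 15502 probe sets from the most negative change, and 3.63% were called lower over this step. From 10 days to 3 months exorh rose by 4.74 ± 0.36 or 26.8-fold (limma, 6 against 8 arrays, adjusted p = 3.91e-17), at rank 24 of all probe sets, of which 10.9% were called higher. From 3 months to 1 to 2 years the difference was 0.56 ± 0.36 (95% interval -0.16 to 1.28; limma, adjusted p = 0.906), which did not pass the test, and 0.123% of all probe sets were called. In bulk samples such as these, fewer cells of a type and less RNA per cell cannot be told apart.

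Adult pineal exceeded larval pineal by 4.02 ± 0.23 or 16.2-fold (limma, 14 against 24 arrays, adjusted p = 5.06e-24), where 8.46% of all probe sets were called higher and 7.13% lower. In brain the same comparison gave 0.30 ± 0.25 (95% interval -0.20 to 0.80; limma, 12 against 19 arrays, adjusted p = 0.385), and 11.6% were called. The change with stage was larger in pineal than in brain by 3.72 ± 0.34 (limma interaction, adjusted p = 1.88e-14), a test that 22.8% of all probe sets passed. An F-test over the 5 ages in pineal gave adjusted p = 4.28e-23 (limma), in a tissue where 52.9% of all probe sets passed that test.

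The fall at 10 days was seen by day and by night, and without any single array. Mean log2 values went from 8.37 ± 0.85 (SD, n = 5) at 5 days to 6.60 ± 0.28 (SD, n = 4) at 10 days by day. By night they went from 8.92 ± 0.39 (SD, n = 4) to 7.70 ± 0.63 (SD, n = 4). When each 10-day pineal array was left out in turn, the change from 5 to 10 days stayed between -1.58 and -1.35. Without the library labelled 10-day pineal, day, replicate 2 it was -1.46 ± 0.34 (limma, adjusted p = 0.00131), and without all arrays whose GAPDH ratio passed 3 it was -1.66 (limma, adjusted p = 0.000199). The GAPDH ratio passed 3 on 1 of 9 pineal arrays at 5 days and on 2 of 8 at 10 days.

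From 5 to 10 days 2 of the 8 pineal photoreceptor markers fell, gnat1 and gngt1, against 3.63% of all probe sets. The other 6 did not pass the test, at -0.47 for crx, -0.21 for otx5, gngt2a and rcvrn3, 0.07 for tph2 and 0.29 for aanat2. Without the library labelled 10-day pineal, day, replicate 2, gnat1 (-0.64; limma, adjusted p = 0.213) and gngt1 (-0.84; limma, adjusted p = 0.0836) did not pass either. The summed intensity of the 8 pineal photoreceptor markers was 10164 to 29990 on pineal arrays at 3 and 5 days, 5177 to 12214 at 10 days and 46224 to 91944 in adults. The mean log2 value of these markers on the same array was then subtracted, a reference chosen after the values were seen. This fit used pineal arrays only, had no trend, unlike the main fit, and kept the library labelled 10-day pineal, day, replicate 2. On it exorh fell from 5 to 10 days by 1.15 on the log2 scale with an SE of 0.24 (limma, adjusted p = 0.0015). Without the reference the change was -1.49. The reference genes themselves ran from -1.02 for gnat1 to 0.29 for aanat2 over this step, so the relative fall depends on the genes chosen. Relative to the markers, the rise of exorh from 10 days to 3 months was 2.29 ± 0.27 or 4.87-fold (limma, adjusted p = 1.35e-09). Adult pineal exceeded larval pineal on this relative scale by 1.81 ± 0.17 or 3.51-fold (limma, adjusted p = 2.21e-12). Both relative differences with adults were less than those without the reference, 4.74 and 4.02. This follows from the subtraction, since the reference genes rose too. From 10 days to 3 months gnat1 rose by 4.51 and rcvrn3 by 1.44. The relative sizes depend on the genes chosen as reference. Of these, gnat1 and tph2 were also among the genes most like exorh, as given below.

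Markers of several other cell types also differed between larval and adult pineal arrays. Of all probe sets, 8.46% were higher and 7.13% lower in adult pineal. Of 21 measured skin genes, 8 were higher and 3 lower, and their summed intensity was 33534 to 162684 on larval and 41351 to 205946 on adult arrays. Of 9 red cell genes, 6 were higher and 2 lower, with sums of 468.9 to 8731 and 18225 to 62097. Of 12 neuron genes, 1 was higher and 6 lower, with sums of 31186 to 62749 and 18648 to 44537. Of 5 myelin genes, 2 were higher, mbpa (4.36 ± 0.26) and cd59a (3.51 ± 0.28), and 1 lower, olig2 (-1.0 ± 0.23), with sums of 517.8 to 1680 on larval and 1130 to 11956 on adult arrays. Of 19 muscle genes, 2 were higher, near the share of all probe sets, and 0 lower. Their sums overlapped, at 740.5 to 33076 and 1276 to 19363. From 5 to 10 days 4 of the 21 skin genes fell and 0 rose, against 3.63% and 3.1% of all probe sets, and the sums were 56110 to 162684 at 3 and 5 days and 33534 to 91618 at 10 days. Over the same step 0 of 9 red cell genes passed the test, near those shares of all probe sets, with a median sum of 2469 at 3 and 5 days and 704.6 at 10 days. Of the muscle genes 2 fell, of the myelin genes mbpa rose (1.33 ± 0.37), and of the 12 neuron genes 1 rose. The brain samples differed with stage too. Summed muscle intensity was 11302 to 156778 in larval and 1091 to 2202 in adult brain, and skin sums were 19937 to 80041 and 3497 to 16776. Neuron sums were 27630.5 to 60658 in larval and 69454 to 88047 in adult brain. The part of these cells in the changes of exorh, or in its differences between tissues, was not tested. No marker gene had an intensity of 0 on any array, and the lowest single value was 1.1.

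Genes for the visual cascade surround exorh in the photoreceptor and were followed through the same ages. Of 99 phototransduction genes other than exorh on the lists, 37 were measured. In the comparison of pineal with brain 21 of these 37 were higher and 0 lower, against 2.51% and 3.28% of all probe sets. The median difference was 1.29, and 0.02 over all probe sets. From 10 days to 3 months 23 of the 37 rose and 1 fell, against 10.9% rising and 10% falling among all probe sets. The median change was 1.44, and -0.06 over all probe sets. From 5 to 10 days 6 of the 37 fell and 0 rose, against 3.63% falling and 3.1% rising of all probe sets. The median change was -0.39, and 0.02 over all probe sets.

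Among the receptors, 10 opsins and opsin relatives were measured, exorh included. From 10 days to 3 months 4 of them rose, against 10.9% of all probe sets. Besides exorh these were the red cone opsin opn1lw1 (5.63 ± 0.43), the blue cone opsin opn1sw2 (2.02 ± 0.51) and rgrb (1.27 ± 0.44), a relative of the opsin-like retinal G protein-coupled receptor. At 10 days opn1lw1 differed between pineal and brain by 0.19 ± 0.41 (limma, adjusted p = 0.86), where exorh differed by 1.58. The green cone opsins opn1mw1 (-0.40 ± 0.44), opn1mw2 (0.81 ± 0.49) and opn1mw4 (0.65 ± 0.40) and the ultraviolet cone opsin opn1sw1 (0.70 ± 0.54) did not pass the test from 10 days to 3 months. Of the 10 measured genes on the list for retina and lens, 3 were higher in adult than in larval pineal and 0 lower, against 8.46% and 7.13% of all probe sets. Their summed intensity was 229.6 to 1317 on larval and 2623 to 13187 on adult pineal arrays. On brain arrays it was 301.7 to 4002 in larvae and 176.4 to 5550 in adults. The larval median was 771.9 in brain and 407.4 in pineal. For comparison, the intensity of opn1lw1 alone was 4.0 to 199.7 on larval and 2068 to 12182 on adult pineal arrays. How far the higher adult sum goes beyond the rise of this 1 gene was not tested. The part of retinal tissue in the values of either tissue was not tested. The rod opsin gene rho, the retinal relative of exorh, was not analysed here, and whether RNA of rho adds to the signal of the exorh probe set was not tested.

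In transducin, the G protein that opsins activate, 7 of 8 measured genes rose from 10 days to 3 months, against 10.9% of all probe sets. The rod alpha subunit gnat1 rose by 4.51 ± 0.40 and the gamma subunit gngt1 by 2.86 ± 0.37. The beta subunits gnb3b and gnb1a rose by 2.55 ± 0.39 and 1.28 ± 0.18. A second probe set of gnat1 gave 4.68 for the same step.

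In the phosphodiesterase group 4 of 6 genes rose over that step, when 10.9% of all probe sets rose and 10% fell. They were the catalytic subunits pde6a (3.44 ± 0.32) and pde6c (3.70 ± 0.38), the inhibitory subunit pde6ha (3.72 ± 0.40) and unc119.2, which belongs to a family that carries lipid-modified photoreceptor proteins (3.73 ± 0.33). The measured channel gene, cnga1a, rose by 3.75 ± 0.35. Of the 5 genes for guanylate cyclase and its regulators, which restore cyclic GMP, 3 rose: guca1aa (5.09 ± 0.36), gucy2f (3.03 ± 0.33) and gucy2d (1.83 ± 0.38). Of 8 genes that shut off or tune the response, 5 rose, among them gnb5b (2.42 ± 0.22), pdcb (2.36 ± 0.35) and rcvrn2 (2.44 ± 0.45). The gene that fell was rgs9b (-2.58 ± 0.21), a regulator that speeds the return of transducin to rest. Unlike exorh, rgs9b was lower in pineal than in brain at 3 months (-2.16 ± 0.23) and 1 to 2 years (-2.14 ± 0.21). It was not called between the tissues at 3, 5 or 10 days. Of all 38 genes, exorh included, opn1lw1 and guca1aa had larger estimated rises than the 4.74 of exorh.

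The 6 genes that fell with exorh between 5 and 10 days were opn1sw2 (-1.64), cnga1a (-1.35), gnb3b (-1.27), rgs9bp, which anchors a transducin regulator (-1.22), gnat1 (-1.02) and gngt1 (-1.01). The library labelled 10-day pineal, day, replicate 2 had a gnat1 intensity of 23.3 and a cnga1a intensity of 19.5. The other 7 pineal arrays of that age read at least 356.0 and 170.4. Its exorh intensity of 62.3 was close to the 62.8 of replicate 3. Without this library 4 of the 37 genes fell: opn1sw2, gnb3b, cnga1a and rgs9bp. The change of gnat1 became -0.64 (limma, adjusted p = 0.213) and that of gngt1 -0.84 (limma, adjusted p = 0.0836), neither of which passed the test, while cnga1a stood at -1.03 (limma, adjusted p = 0.0109). Without all arrays of a GAPDH ratio over 3 also 4 fell, but not the same 4: gngt1 kept its call at -1.04 (limma, adjusted p = 0.00574), cnga1a at -0.99 was below 2-fold (limma, adjusted p = 0.0209), and gnat1 at -0.80 did not pass (limma, adjusted p = 0.0694). The second probe set of gnat1 gave -0.62 over this step with all arrays.

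**Figure D3:**
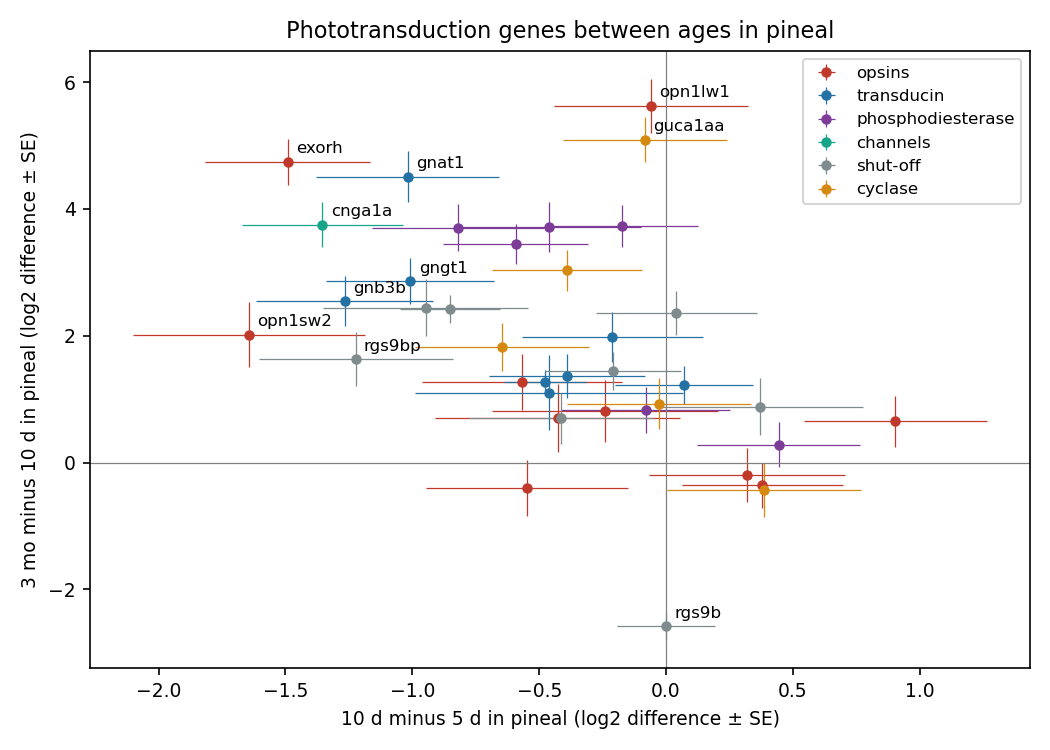
Change of 38 phototransduction genes in pineal from 5 to 10 days (x axis) and from 10 days to 3 months (y axis), both as log2 differences with standard errors from limma, coloured by role in the cascade. The axes share the 10-day arrays, so high values on one favour low values on the other; exorh stands at -1.49 and 4.74, opn1lw1 at -0.06 and 5.63, and rgs9b at -2.58 on the y axis.

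The comparison of night with day asks whether exorh follows the daily cycle of the gland. Averaged over ages, exorh differed between night and day in pineal by 0.41 ± 0.22 (95% interval -0.03 to 0.85; limma, 19 against 19 arrays, adjusted p = 0.397), which did not pass the test. Here, where an adjusted p below 0.05 sufficed, 2.64% of all probe sets passed. In both tissues, the arrays with a GAPDH ratio over 3 were all day arrays except 10-day pineal, night, replicate 2 (6.67). In pineal by day they were 3-day replicate 1 (3.84), 5-day replicate 2 (3.70), 10-day replicate 2 (10.4) and 1 to 2-year replicate 1 (3.98). Other settings, which included the GAPDH ratio as a covariate and leaving these arrays out, gave 0.26 to 0.44. None passed the test. The night estimate was the higher at all 5 ages, and none passed on its own. In larvae the differences were 0.19 ± 0.51 (3 days), 0.55 ± 0.45 (5 days) and 1.1 ± 0.47 (10 days). In adults they were 0.07 ± 0.55 (3 months) and 0.12 ± 0.47 (1 to 2 years). The share of all probe sets that passed at these ages was, in the same order, 1.3%, 0.419%, 0.587%, 0.252% and 0.419%. These shares are imprecise, since leaving out 1 array moved the count behind each by over 1.5 times, as at 10 days from 91 to between 24 and 239. The largest, at 10 days, had a 95% interval of 0.16 to 2.05, an unadjusted p = 0.023 and an adjusted p = 0.308 (limma, 4 against 4 arrays). The estimate held its sign without any single array, and leaving out each 10-day pineal array in turn gave 0.92 to 1.37. An F-test for a night-day difference that varied with age gave adjusted p = 0.819 (limma), and 0.258% of all probe sets passed it.

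In brain the night-day difference of exorh was 0.18 ± 0.24 (limma, 16 against 15 arrays, adjusted p = 0.864), and 0.922% of all probe sets passed. The difference between the tissues in this respect was 0.23 ± 0.33 (95% interval -0.43 to 0.88; limma interaction, adjusted p = 0.994), a test that 0.129% of all probe sets passed. The interval for pineal over all ages holds both 0 and a night excess of up to 0.85 on the log2 scale.

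On the same arrays aanat2, the known night gene of the gland, was higher at night by 2.39 ± 0.21 over all ages and passed the test at each of the 5 ages. At 10 days its night rise was 2.43 ± 0.44 (limma, adjusted p = 0.00105). By day at 10 days its intensities ranged from 62.8 to 195.7 and by night from 480.3 to 976.6, without overlap. Between 5 and 10 days aanat2 changed by 0.29 ± 0.31 (limma, adjusted p = 0.596), the step over which exorh fell. Of the 37 phototransduction genes, 1 was higher and 4 were lower at night in pineal, against 1.34% and 1.3% of all probe sets. These were guca1aa (1.31 ± 0.22), pde6ha (-2.44 ± 0.24), pde6hb (-1.16 ± 0.22), rcvrn3 (-1.14 ± 0.18) and rcvrn2 (-0.98 ± 0.27). Of them pde6ha was also lower at night in brain (-2.02 ± 0.27, limma, adjusted p = 3.05e-07). In pineal pde6ha passed the test at 3, 5 and 10 days, but not at 3 months (-1.37 ± 0.60) or 1 to 2 years (-1.02 ± 0.52). Of the 11 measured genes that carry or convert retinoids, the vitamin A derivatives that opsins bind, 4 were lower and 0 higher at night: rbp4 (-1.54 ± 0.14), rbp3 (-2.64 ± 0.25), cyp27c1 (-1.25 ± 0.17) and rbp4l (-1.59 ± 0.23).

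**Figure D4:**
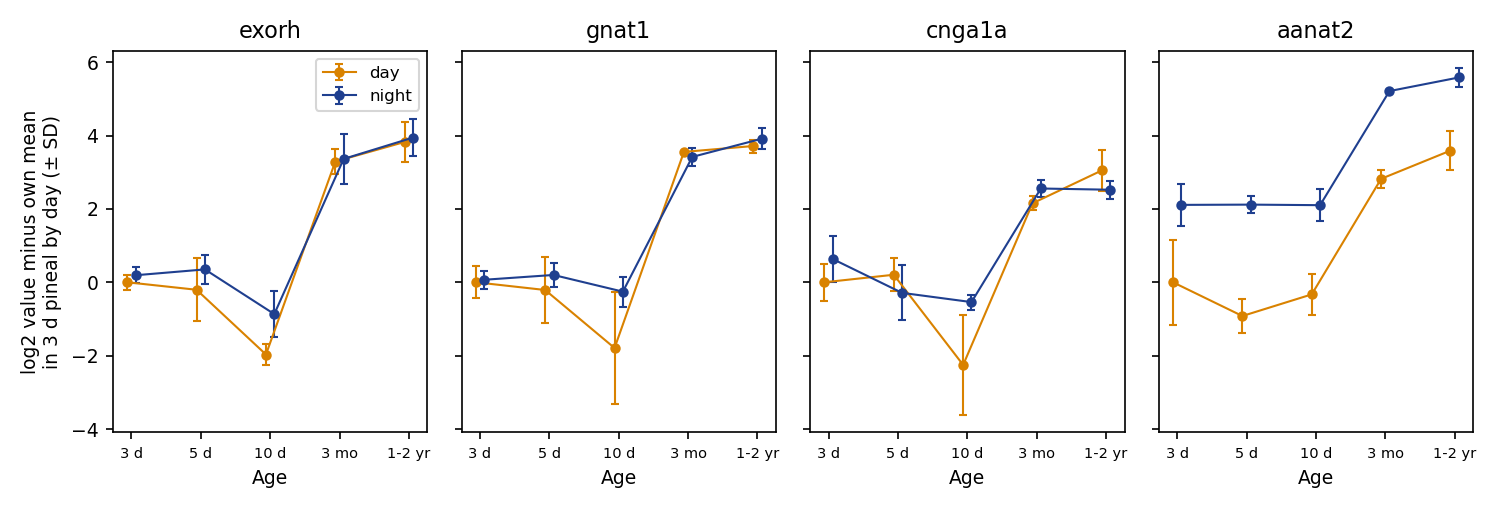
Mean log2 value of exorh, gnat1, cnga1a and aanat2 in each pineal group, as the difference from the gene's own mean in 3-day pineal by day, with SD bars over 3 to 5 arrays; day is orange and night blue. The day and night curves of exorh lie within 1.1 of each other at every age, those of aanat2 are 1.99 to 3.04 apart, and the wide 10-day bars of gnat1 and cnga1a by day include the library with 23.3 and 19.5.

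Transcription factors of pineal and photoreceptor cells were also followed, among them those of the Otx and Crx family, which act on photoreceptor promoters. Of 25 measured transcription factor genes, 6 were higher and 1 lower in pineal than in brain, against 2.51% and 3.28% of all probe sets, with noto (5.21 ± 0.20), nr2e3 (3.48 ± 0.11), crx (3.17 ± 0.13) and otx1 (1.35 ± 0.09) at the smallest adjusted p. From 10 days to 3 months, when 10.9% of all probe sets rose and 10% fell, 5 of the 25 rose and 3 fell, the latter near the share of all probe sets. Among them were nr2e3 at 1.62 ± 0.25, tbx2b at 2.20 ± 0.37, isl1a at 1.15 ± 0.23 and six3a at -1.5 ± 0.25. The factors crx and otx5 rose by 1.41 ± 0.29 and 1.06 ± 0.35. Over that step exorh rose by 4.74. From 5 to 10 days, when exorh fell, 0 of the 25 fell and 1 rose, counts near the 3.63% and 3.1% of all probe sets. That 1 was thrb (1.35 ± 0.35), and crx was at -0.47 ± 0.26 (limma, adjusted p = 0.233). Of 11 genes that carry or convert retinoids, 5 rose and 0 fell from 10 days to 3 months, against the same 10.9% and 10%, among them stra6, which takes up retinol into cells (1.89 ± 0.20), and rlbp1a, which binds retinal in the cell (2.81 ± 0.31). The others among the 4 of smallest adjusted p were rpe65a, an isomerase of the visual cycle (2.12 ± 0.32), and rbp3, a retinoid carrier between cells (2.68 ± 0.41). Between 5 and 10 days 0 of the 11 rose or fell, which for a list this short is near the 3.1% and 3.63% of all probe sets. Of 6 melatonin synthesis genes, 4 rose from 10 days to 3 months, again against 10.9%, tph2 (3.28 ± 0.25), aanat2 (3.13 ± 0.34), ddc (2.23 ± 0.24) and tph1a (2.66 ± 0.30). Over the step from 5 to 10 days 0 of these 6 rose or fell, again near the shares of all probe sets. Of 7 genes for outer segment structure, 1 rose, prom1b (1.16 ± 0.30), and 0 fell from 10 days to 3 months, a share near the 10.9% of all probe sets. Of the same 7, 0 changed from 5 to 10 days, also near the shares of all probe sets.

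The genes whose level followed exorh most closely over the 20 group means were slc25a3a, a mitochondrial phosphate carrier (Pearson r = 0.980), tph2, which starts serotonin synthesis (0.980), unc119.2 (0.977), cnga1a (0.973) and gnat1 (0.972). The next 5 were arl3l2 (0.967), asip2b (0.965), uckl1a (0.964), guk1b, a guanylate kinase (0.961), and inaa, a neurofilament gene (0.959). For a gene with several probe sets the brightest on average was used, and 8792 genes were searched. All 10 were higher in pineal than in brain, by 2.03 to 4.98, an excess that their choice by likeness to exorh over both tissues favoured.

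Within the 10 pineal group means, gnat1 was closest (r = 0.995), followed by muc5.2 (0.989), got2a (0.989), spi1b (0.986) and slc25a3a (0.986). The next were cd82b (0.986), guk1b (0.985), inaa (0.985), egln3 (0.984) and clic1 (0.982). The search took 7098 genes whose pineal group means spanned at least 1 on the log2 scale. Both lists held gnat1, slc25a3a, guk1b and inaa. Among the pineal list, got2a differed between pineal and brain by -0.44 and spi1b, a transcription factor of blood cells, by 0.21. The group means share arrays and the step between larval and adult fish, and these correlations are descriptions of the groups.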

How the data were processed

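The deposited table held 1 linear intensity for each of 15617 probe sets on each of 69 Affymetrix arrays of the zebrafish genome, 1 array per sample. With 2% trimmed at each end, column means lay between 500.1 and 500.2, so the authors' deposited intensity values share a scaling target; the sources used here name no summary algorithm. The 115 control probe sets were left out. With 16 added, log2 array medians spanned 0.87, over the limit of 0.5, and the values were quantile normalized. Probe sets took symbols from the platform annotation, updated through gene identifiers for 1 of them. Of 15502, 10795 had 1 symbol, 135 several and 4572 none here.

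Tests used limma 3.58.1 in R 4.3.3, with a mean per group, moderated statistics with a trend (49 residual and 14.3 prior degrees of freedom), two-sided, and p-values adjusted by Benjamini-Hochberg over all 15502 probe sets in a contrast. Errors are standard errors unless named. Groups entered contrasts with equal weight. Tissue and age contrasts required an adjusted p below 0.05 and 2-fold; contrasts of night and day and the F-tests required the adjusted p alone. The p-values reflect the spread between labelled replicates, and the number of arrays limits precision. The steps were tested on simulated data.

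From each list up to 4 called genes of smallest adjusted p, or the 2 of highest mean, were named, and the 10 genes most like exorh; genes outside this rule, the 10-day library and the marker reference were chosen after values were seen. The members and lists were chosen with earlier results of these data known. Alternatives were other constants (1, 64), no scaling, median centring, a filter on dim probe sets (an intensity of 100 on 3 arrays), 1 tissue in the fit, array weights, the GAPDH ratio, a replicate block, no trend and leaving out each array.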

Additional observations from a re-analysis of the deposited data

Results flagged for a closer look

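The change of exorh between larval and adult fish differed between the tissues. It was larger in pineal than in brain by 3.72 ± 0.34 on the log2 scale (limma interaction of tissue and stage, adjusted p = 1.88e-14), with 14 of 14 adult pineal arrays above all 24 larval ones and overlapping ranges in brain. Of all probe sets, 22.8% passed this test.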

How the results depend on the processing

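The higher level of exorh in pineal, over all ages and at each age, its fall from 5 to 10 days, its rise to 3 months and the tissue-by-stage difference kept their direction and their call under the alternatives run, except that the 10-day tissue difference dropped to 0.99, below 2-fold, with a constant of 64. Without single arrays the fall from 5 to 10 days ranged from -1.61 to -1.35 and the 10-day tissue difference from 1.41 to 1.72. Values that did not pass the test changed sign in places: night minus day at 3 months was -0.058 with array weights and -0.32 to 0.30 without single arrays, and at 1 to 2 years -0.11 to 0.36 without single arrays. The night-day difference between tissues was -0.037 with array weights. The change from 3 to 5 days was 0.19 with array weights, 0.049 without arrays of a GAPDH ratio over 3, 0.35 relative to the markers and -0.15 to 0.10 without single arrays. The causes were not tested.

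Replicate numbers were shared by pineal and brain samples of an age and time. Deviations were correlated above 0.1 in 11 of 31 pairs (median 0.07, range -0.02 to 0.37). The pairs at 1 to 2 years lay higher than this median, from 0.09 to 0.37. A shared number was not treated as a pairing at any age. With the number as a replicate block (correlation 0.12) the 10-day tissue difference was 1.58 and no call of exorh changed. The genes most like exorh depended on the measure: with Spearman's rho 5 of 10 over all groups and 3 of 10 within pineal were shared, and without scaling 9 and 8. The count of phototransduction genes that fell from 5 to 10 days was 3 to 6 under other settings and 4 to 7 without single arrays. Probe sets called from 3 months to 1 to 2 years numbered 19, and 3 to 58 under other settings; those for night and day in brain numbered 143, and 38 to 1451. Other counts that moved by over 1.5 times under some setting were night and day in pineal over all ages (409, and 235 to 434), at 3 days (201, and 60 to 477), at 5 days (65, and 32 to 78), at 10 days (91, and 16 to 125), at 3 months (39, with 20 to 107) and in the oldest fish (65, with 29 to 127). So did the night-day difference between tissues (20, and 9 to 87) and between ages (40, and 7 to 109), the tissue difference at 10 days (564, and 357 to 640), the stage difference in brain (1797, and 1187 to 2373), and the pineal steps from 3 to 5 days (412, and 181 to 512), 5 to 10 days (1043, and 550 to 1224) and 10 days to 3 months (3238, and 2049 to 3608). Leaving out 1 array moved the counts of night and day in pineal to 69 to 295 at 3 days, at 5 days down to 35 or, without day replicate 3 or 4, up by over 1.5 times, 24 (without day replicate 2) to 239 (without day replicate 1) at 10 days, 15 to 42 in 3-month and 28 to 110 in the oldest fish. It also moved those in brain to 82 to 365, between tissues to 9 to 28, across ages to 26 to 95 and from 3 months to the oldest fish to 9 to 28. Brain values of exorh are dim, and folds against them depend on the added constant.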
